A study of Homo sapiens with 27 samples.

Results

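AZD8931, a tyrosine kinase inhibitor of EGFR, ERBB2 and ERBB3, was compared with the DMSO vehicle in UMSCC1 cells, an established line from a head and neck squamous cell carcinoma (HNSCC), that expressed the pooled kinome shRNA library. The comparison covered every shRNA with at least 10 counts summed over the 3 AZD8931 and 3 DMSO plates, which was 3045 of the 3177 shRNAs listed. Of the 132 left out, 53 had 0 counts on all 6 plates and 79 had between 1 and 9. At the edge of this minimum, 7 shRNAs had exactly 10 counts and 5 had exactly 9. Both groups carried the same lentiviral library and had been selected with puromycin, and they differed in the agent alone: DMSO or AZD8931 for 72 hours, then 72 hours of recovery in medium, with genomic DNA isolated at 144 hours. The dose of AZD8931 is 30 nM in the treatment protocol of the labels and in the methods, and 1.0 μM in another field of the labels. The series holds 27 plates in all, with gefitinib as a second agent and UMSCC25 and UMSCC8 as further lines. Of the clone identifiers (TRCN numbers) in the table, 6 are paired with a gene, TGFBR1 or TGFBR2, by the study. For the others no target gene and no hairpin sequence was at hand, so a few are given by identifier alone.

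In a pooled screen of this kind each cell carries an integrated hairpin that lowers the mRNA of a single gene, here mostly kinases. The integrated cassettes are amplified from genomic DNA, and the count of an shRNA stands for the number of surviving cells that carry it. A hairpin becomes scarcer under an inhibitor when its cells survive or divide less than the rest of the pool, and such a gene is called synthetic lethal with the drug; a hairpin becomes more abundant when its cells outgrow the rest. EGFR, a target of AZD8931 and of gefitinib, is overexpressed in most HNSCC, and ERBB2 and ERBB3 are its partners in receptor dimers. UMSCC1 is a pool of transduced cells here, not a clone, and an shRNA carried by few cells can drift from plate to plate with no effect of the agent. A lower count could stand for fewer cells or for less amplified DNA, and these cannot be told apart.

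The 6 plates were unlike each other to different degrees. Total counts were 460879, 258742 and 491217 on DMSO replicates 1 to 3 and 411547, 266911 and 529543 on AZD8931 replicates 1 to 3, so 1 count was worth between 1.86 and 4.43 CPM, the count scaled to the depth of its plate after TMM normalization. The median member had 67, 30 and 78 counts with DMSO and 38, 37 and 74 with AZD8931. AZD8931 replicate 1 stood apart: its shRNAs deviated from the mean of the other 8 UMSCC1 plates with an SD of 1.83 on the log2 scale, against 1.02 to 1.16 on the other 5 plates compared. Its Spearman correlation was 0.646 with DMSO replicate 3, the lowest of any pair of the 6 plates, and between 0.751 and 0.822 with the other 4. Pairs of plates without it correlated between 0.804 and 0.864. The main results are therefore given with and without AZD8931 replicate 1, whose removal leaves 3031 shRNAs over the minimum. A plate this far apart was not particular to UMSCC1. In UMSCC8, DMSO replicate 1 deviated from the other UMSCC8 plates with an SD of 1.77, against 0.64 to 0.94 on the others. The UMSCC8 fold changes given below include it.

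Apart from AZD8931 replicate 1, plates of one agent differed from each other as much as plates of different agents did. Between a pair of DMSO plates the typical shRNA differed by 0.687 to 0.767 on the log2 scale (median absolute log2 ratio, 3 pairs), and 35.2% to 39.5% of the shRNAs differed by more than 2-fold. AZD8931 replicates 2 and 3 differed from each other by 0.722, and from the DMSO plates by 0.657 to 0.753 over 6 pairs. With AZD8931 replicate 1 the same measure rose to between 1.04 and 1.21 within the AZD8931 group and reached 1.37 against DMSO replicate 3.

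The number of missing shRNAs was highest on AZD8931 replicate 1, and the groups overlapped. Of the 3045 members, 63, 105 and 87 had 0 counts on the DMSO plates and 240, 149 and 80 on the AZD8931 plates. The means were 85.0 ± 21.1 with DMSO and 156 ± 80.3 with AZD8931 (SD, n = 3 plates), a difference of 71.3 (exact permutation test, two-sided p = 0.3, where 3 plates against 3 allow no p below 0.1). Without replicate 1 the difference was 29.5 shRNAs (same exact test, p = 0.6). When each plate was thinned to 258742 counts, the total of the shallowest, 92, 105 and 99 members were at 0 with DMSO and 304, 149 and 121 with AZD8931, and every AZD8931 plate then exceeded every DMSO plate (exact permutation test, p = 0.1, the smallest possible). The 10 most abundant shRNAs took 19.2%, 31.8% and 20.9% of the counts with DMSO and 14.1%, 21.0% and 18.6% with AZD8931, a difference of means that did not exceed the spread (exact permutation test, p = 0.3, and p = 0.6 without replicate 1).

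No shRNA was lower or higher with AZD8931 at an adjusted p under 0.05, in the quasi-likelihood test of edgeR with Benjamini-Hochberg adjustment over 3045 shRNAs (0% in each direction, lowest adjusted p 0.0937). Before adjustment, p was under 0.05 for 144 lower shRNAs (4.73%) and 145 higher ones (4.76%). The test is two-sided, so the threshold of 0.05 covers both directions together, here and in the shares per direction given below. Without AZD8931 replicate 1 the test again called 0 of 3031 shRNAs in either direction, with 109 lower (3.60%) and 73 higher (2.41%) at an unadjusted p under 0.05 and a lowest adjusted p of 0.198. The other plates moved these counts too: before adjustment 68 were lower and 73 higher without DMSO replicate 3, and 201 lower and 230 higher without AZD8931 replicate 2. The median log2 fold change over all members was -0.01, with quartiles of -0.57 and 0.52. Without replicate 1 it was -0.03, with quartiles of -0.59 and 0.38. A log2 fold change below -1 was found for 15.3% of the members and one above 1 for 10.0%. These shares were 14.5% and 6.43% without replicate 1, so leaving it out took away more of the large increases than of the large decreases.

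Other tests of the same counts made calls, most of which were not made without AZD8931 replicate 1. DESeq2 called 17 shRNAs lower (0.558%) and 7 higher (0.230%) at an adjusted p under 0.05. On 16 of the 17 and on 7 of the 7, the 3 AZD8931 plates lay wholly on one side of the 3 DMSO plates. Of all members, 6.70% had their AZD8931 plates below in this way and 5.58% above. The calls were made on these same plates, so the separation is no further support for them. Without replicate 1, DESeq2 called 1 of the 17 and 0 of the 7. With the exact test of edgeR there were 2 lower calls (0.0657%), TRCN0000010117 and TRCN0000001935, and 1 higher call (0.0328%), TRCN0000010207. TRCN0000001935 was at 0 on the 3 AZD8931 plates and passed the minimum only through the DMSO plates, so that it had to be lower. Without replicate 1 the exact test called TRCN0000010117 alone (0.0330%). TRCN0000010117 was thus called by both of these tests with and without replicate 1.

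Over all members, the 3 AZD8931 plates lay below the 3 DMSO plates for 204 shRNAs (6.70%) and above them for 170 (5.58%). AZD8931 replicates 2 and 3 alone lay below the 3 DMSO plates for 329 members (10.8%) and above them for 286 (9.39%). Of the 144 shRNAs lower at an unadjusted p under 0.05, 87 had plates that did not overlap, and of the 145 higher ones 74 had. AZD8931 replicate 1 was the highest of the 3 AZD8931 plates for 120 of the 145 higher shRNAs (82.8%), against 37.1% of all members, and the lowest for 85 of the 144 lower ones (59.0%), against 40.7% of all members. Of the 144 lower shRNAs, 79 were also lower at an unadjusted p under 0.05 without replicate 1 (54.9% of the 144 and 72.5% of the 109). Of the 145 higher ones, 47 were (32.4% of the 145 and 64.4% of the 73). The median log2 fold change of the 144 was -2.56 with and -2.16 without replicate 1, and that of the 145 was 1.41 with and 0.83 without.

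In each direction, the 2 shRNAs with the smallest p among those whose plates did not overlap are described singly. TRCN0000010117 came first among the lower ones. It had 78, 10 and 268 counts on DMSO replicates 1 to 3, which is 155, 44.3 and 503 CPM, and 4, 3 and 4 counts on AZD8931 replicates 1 to 3, which is 12.2, 11.0 and 7.43 CPM. All 3 AZD8931 plates were low and close to each other, while the DMSO plates spread over more than 10-fold, and the lowest DMSO plate was the one nearest to the AZD8931 plates. The means were 234 ± 239 CPM with DMSO and 10.2 ± 2.47 CPM with AZD8931 (SD, n = 3 plates). The quasi-likelihood fit of edgeR gave a log2 fold change of -4.54 with a standard error of 0.87 and an adjusted p of 0.0937. Without AZD8931 replicate 1 it gave -4.71 with a standard error of 0.97 and an adjusted p of 0.198. Summed over the plates and scaled to depth, the count ratio of DMSO to AZD8931 was 29.2 (95% interval 16.2 to 59.1, which covers counting error only).

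When single plates were left out, the log2 fold change of TRCN0000010117 moved most with DMSO replicate 3. Without DMSO replicate 3, the plate with 268 counts, the log2 fold change was -3.32 (adjusted p = 0.529, edgeR's quasi-likelihood test), and without DMSO replicate 2, the plate with 10 counts, it was -5.01 (adjusted p = 0.0229, same test). Over the 16 alternatives run, its adjusted p lay between 0.000168 (DESeq2) and 0.730 and passed 0.05 in 3. The gefitinib plates of UMSCC1, which share the DMSO plates as controls, held 347, 142 and 88 counts of it, a log2 fold change of 0.67 against DMSO (standard error 0.69). With AZD8931 the log2 fold change was 1.21 in UMSCC25 (standard error 0.83, adjusted p = 0.693) and 1.07 in UMSCC8 (standard error 0.80, adjusted p = 0.806) by the same edgeR test. Single plates without AZD8931 also held few counts of TRCN0000010117. The UMSCC25 gefitinib plates held 120, 2 and 23, and the UMSCC8 plates 37, 6 and 156 with DMSO and 78, 162 and 5 with gefitinib. The 4 members whose clone numbers lie within 4 of it had log2 fold changes in UMSCC1 between -0.81 and 0.17.

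TRCN0000006387 came second among the lower shRNAs. It had 8, 11 and 45 counts with DMSO and 0, 0 and 1 with AZD8931, so all AZD8931 plates lay under the 3 counts that a count of 0 allows, and under every DMSO plate. This is 49.7 ± 34.3 CPM with DMSO and 0.619 ± 1.07 CPM with AZD8931 (SD, n = 3 plates). With 1 count in the AZD8931 group the ratio of DMSO to AZD8931 was 57.8, with a counting interval from 10.0 to 2320 (41.2 without replicate 1). Its adjusted p was 0.325 (edgeR's quasi-likelihood test) and 0.579 without replicate 1. This shRNA passed the minimum of 10 counts only through the DMSO plates, so that it had to be lower with AZD8931. Gefitinib plates held 70, 58 and 14 counts. In the other lines its log2 fold change with AZD8931 was 1.31 in UMSCC25 (standard error 1.01) and 0.69 in UMSCC8 (standard error 1.14), neither past an adjusted p of 0.05. Low counts of it were not limited to AZD8931: the UMSCC25 gefitinib plates held 3, 0 and 1, and the UMSCC8 DMSO plates 12, 0 and 55.

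TRCN0000010207 came first among the higher shRNAs. It had 14, 10 and 27 counts on the DMSO plates, or 27.9, 44.3 and 50.7 CPM, and 291, 81 and 95 counts on the AZD8931 plates, or 885, 297 and 176 CPM. Every AZD8931 plate was above every DMSO plate, and AZD8931 replicate 1 was the highest by far. The DMSO plates agreed closely, at 40.9 ± 11.8 CPM, while the AZD8931 plates were at 453 ± 379 CPM (SD, n = 3 plates). In edgeR's quasi-likelihood fit it was higher by 3.46 on the log2 scale, with a standard error of 0.67 and an adjusted p of 0.0937, and by 2.53 without replicate 1, with a standard error of 0.68 and an adjusted p of 0.579. Over the 16 alternatives its adjusted p lay between 0.000172 (DESeq2) and 0.730 and passed 0.05 in 2. The count ratio of AZD8931 to DMSO, scaled to depth, was 10.1 (95% counting interval 7.58 to 13.8), and 5.37 without replicate 1 (3.91 to 7.48). The gefitinib plates held 26, 15 and 45 counts, a log2 fold change of 0.39 against the same DMSO plates (standard error 0.64). Of the 5 members with clone numbers within 4 of it, 3 were above 0 and 2 below, with log2 fold changes from -1.03 to 2.75.

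TRCN0000002235, which came second among the higher shRNAs, had 37, 11 and 82 counts with DMSO and 362, 72 and 166 with AZD8931. In CPM this was 73.6, 48.7 and 154 with DMSO and 1101, 264 and 308 with AZD8931, again with AZD8931 replicate 1 far above the other plates. This was a difference of 2.57 on the log2 scale (standard error 0.62), at an adjusted p of 0.325 in edgeR's quasi-likelihood test. Without replicate 1 it was 1.61 (standard error 0.58), at an adjusted p of 0.621 in that test. Its gefitinib plates held 69, 61 and 64 counts. Its log2 fold change with AZD8931 was 0.75 in UMSCC25 (standard error 0.53) and 0.29 in UMSCC8 (standard error 0.45), and neither passed the test.

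Scarce and abundant shRNAs leaned in opposite directions. The members were split into 3 classes of 1015 by their mean CPM on the 3 gefitinib plates of UMSCC1, which are not part of the comparison. In the scarcest class, up to 81.0 CPM, the median log2 fold change was -0.23 (quartiles -1.18 and 0.48), in the middle class it was 0.00 (quartiles -0.52 and 0.46), and in the most abundant class, from 248 CPM, it was 0.15 (quartiles -0.24 and 0.55). In the scarcest class 60 were lower and 19 higher at an unadjusted p under 0.05 (5.91% and 1.87%, against 4.73% and 4.76% of all members). In the most abundant class 33 were lower and 77 higher (3.25% and 7.59%). Without AZD8931 replicate 1 the medians were -0.37, -0.05 and 0.07 from the scarcest class to the most abundant. The counts without it were 40 lower and 17 higher in the scarcest class (4.00% and 1.70%, against 3.60% and 2.41% of all members) and 26 lower and 36 higher in the most abundant (2.56% and 3.55%), so that the shares of the scarcest class were then near those of all members. Missing shRNAs lie mostly in the scarcest class on any plate: 63, 102 and 86 of this class were at 0 on DMSO replicates 1 to 3 and 202, 141 and 79 on AZD8931 replicates 1 to 3. Their part in the fold changes was not tested.

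Few members vanished from all plates of an agent. On all 3 AZD8931 plates 25 members were at 0 (0.821% of the members), with between 10 and 68 counts over the DMSO plates and a median of 19. On all 3 DMSO plates 6 members were at 0 (0.197%), with between 10 and 50 counts over the AZD8931 plates. These members passed the minimum of 10 counts only through the agent in which they were present, so that they had to differ between the agents. Of the 25, 9 were present on all 3 DMSO plates, and 14 had more than 80% of their DMSO counts on a single plate. For 11 of the 25 the DMSO plates held 20 or more counts in all. On AZD8931 replicates 2 and 3 alone, 37 members were at 0.

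The deviations of AZD8931 replicate 1 were correlated with those of some plates of other lines and other agents, of which the highest and lowest pair among 18 are given. Over the 3045 members, its deviation from the other UMSCC1 plates had a Pearson correlation of 0.412 with the deviation of UMSCC8 DMSO replicate 2 from the other UMSCC8 plates, and of 0.362 with that of UMSCC25 gefitinib replicate 2. The correlation was -0.311 with UMSCC25 AZD8931 replicate 2 and -0.338 with UMSCC25 AZD8931 replicate 3. These plates share no cells with UMSCC1 and have the shRNA library in common, and the correlations are across shRNAs, which are not independent replicates. The other 14 plates lay between -0.274 and 0.208. The positive pair had been treated with DMSO and gefitinib, and the negative pair with AZD8931. What lies behind these correlations was not tested.

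The same pattern was measured on a component computed from the UMSCC25 plates alone, over the shRNAs that passed the minimum in UMSCC1. Its sign was set so that UMSCC1 AZD8931 replicate 1 came out positive, so only the size of that plate's slope is informative. The first principal component of the 9 UMSCC25 plates, which held 24.3% of the variance of their deviations, ran from UMSCC25 gefitinib replicate 2 at one end to UMSCC25 AZD8931 replicates 2 and 3 at the other. On it, the slope was 0.76 for AZD8931 replicate 1 of UMSCC1 (log2 units per SD of the component), 0.06 and 0.17 for AZD8931 replicates 2 and 3, 0.02 and 0.14 for DMSO replicates 1 and 2, and -0.40 for DMSO replicate 3. AZD8931 replicate 1 and DMSO replicate 3 thus lay at opposite ends. The weight of an shRNA on the component, in SDs of the component, was -5.03 for TRCN0000010117 and -4.56 for TRCN0000006387. It was 1.04 for TRCN0000010207 and -1.11 for TRCN0000002235. The log2 fold changes with AZD8931 in UMSCC1 had a Spearman correlation of 0.309 with this component over 3045 shRNAs, and of 0.115 over 3031 without AZD8931 replicate 1. With each plate's slope as a covariate, an alternative chosen after the data were seen, 79 shRNAs were lower and 78 higher at an unadjusted p under 0.05, against 144 and 145. The log2 fold change of TRCN0000010117 was then -2.73 (adjusted p = 0.730) and that of TRCN0000010207 was 2.40 (adjusted p = 0.730), both from edgeR's quasi-likelihood test. Each slope was computed from that plate's own counts, which are also the counts tested, and the slopes partly followed the agent. Fewer calls and smaller fold changes were therefore partly built in, and no conclusion is drawn from them.

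The same plates also parted by clone number. Among the 226 members numbered 10000 to 10999, which include TRCN0000010117 and TRCN0000010207, the median deviation was -1.02 on the log2 scale on AZD8931 replicate 1 and 0.59 on DMSO replicate 3. It was 0.18 and -0.16 on AZD8931 replicates 2 and 3, and -0.07 and -0.12 on DMSO replicates 1 and 2. In the other blocks of 1000 numbers with at least 100 members, it lay between -0.25 and 0.23 on AZD8931 replicate 1 and between -0.06 and 0.01 on DMSO replicate 3. At an unadjusted p under 0.05, 26 of the 226 were lower with AZD8931 (11.5%, against 4.73% of all members) and 8 higher (3.54%, against 4.76%). There were 17 lower ones without AZD8931 replicate 1 (7.59%, against 3.60%). The median log2 fold change of the block with AZD8931 was -0.27 in UMSCC1 (-0.13 without replicate 1), 0.25 in UMSCC25 and 0.07 in UMSCC8. What the shRNAs of this block share beside their numbers was not tested.

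Members with adjoining clone numbers had the same sign slightly more often than the signs of all members give. Over 2572 pairs of members whose numbers differ by 1, 52.7% of the pairs had log2 fold changes of the same sign, against 50.0% from the signs of all members, and the Spearman correlation within pairs was 0.070. Without AZD8931 replicate 1 the share was 51.1% of 2547 pairs and the correlation 0.041. The other lines were similar, with 53.1% of 2524 pairs in UMSCC25 (against 50.1% from the signs) and 51.2% of 2550 in UMSCC8 (against 50.0%). These shares lie near those from the signs, and the differences were not tested. Such pairs share a plate set and, in part, a block of clone numbers, and are not independent.

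The effect of AZD8931 differed between UMSCC1 and UMSCC25 for 2 shRNAs and from UMSCC8 for 0, in an interaction term fitted with edgeR (quasi-likelihood) over the 27 plates, with Benjamini-Hochberg adjustment over 3045 shRNAs. In the comparison with UMSCC25, 1 shRNA had a lower effect in UMSCC1 (0.0328%) and 1 a higher one (0.0328%). The lower one passed the minimum in UMSCC1 only through the DMSO plates, so its direction within UMSCC1 was fixed in advance. Before adjustment, p was under 0.05 for 234 lower (7.68%) and 176 higher ones (5.78%) against UMSCC25 and for 211 lower (6.93%) and 168 higher ones (5.52%) against UMSCC8. Without AZD8931 replicate 1 of UMSCC1 these were 182 and 90 against UMSCC25 and 138 and 97 against UMSCC8. Leaving out other single plates moved the 2 calls against UMSCC25 to between 0 and 28, with 25 without UMSCC1 DMSO replicate 2 and 28 without UMSCC1 AZD8931 replicate 2. With a replicate block, and with limma-voom, there were 0 calls (lowest adjusted p 0.149 and 0.110). The higher one was TRCN0000010207, with a difference of 4.76 between the log2 fold changes (standard error 0.99, adjusted p = 0.0426, edgeR). In UMSCC25 it had 60, 10 and 18 counts with DMSO and 23, 5 and 7 with AZD8931, the opposite direction from UMSCC1, with groups that overlapped.

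The lower one was TRCN0000001935, which the rule for named shRNAs had not chosen. In UMSCC1 it had 19, 12 and 37 counts with DMSO and 0, 0 and 0 with AZD8931, at least 20.5-fold lower when 3 counts are allowed over the AZD8931 group. Gefitinib plates of UMSCC1 held 60, 12 and 3 counts. In UMSCC25 it had 3, 15 and 1 counts with DMSO and 24, 25 and 33 with AZD8931, where every AZD8931 plate was above every DMSO plate. In UMSCC8 it had 31, 46 and 30 counts with DMSO and 28, 18 and 32 with AZD8931, and the groups overlapped. It passed the minimum of 10 counts in UMSCC1 only through the DMSO plates, so that within UMSCC1 it had to be lower with AZD8931. With that limit, the interaction with UMSCC25 had an adjusted p of 0.0402 (edgeR). Within UMSCC1 its adjusted p was 0.325 (same tool). Without AZD8931 replicate 1 of UMSCC1 neither interaction passed the test, with adjusted p of 0.152 for TRCN0000001935 and 0.257 for TRCN0000010207 (edgeR). UMSCC25 AZD8931 replicates 2 and 3 lay at the other end of the component, which they helped to define, from UMSCC1 AZD8931 replicate 1. The part of the component in these differences was not tested.

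The shRNAs lower or higher in UMSCC1 before adjustment are given with their direction in the other lines, beside the share of all members with that direction and without a test. Of the 144 lower at an unadjusted p under 0.05 in UMSCC1, 141 were tested in UMSCC25 and 31 of these were lower there too (22.0%, against 48.2% of all members tested in UMSCC25), with a median log2 fold change of 0.81. In UMSCC8, 51 of the 144 were lower (35.4%, against 48.7%), with a median of 0.21. For the 109 lower without AZD8931 replicate 1 the shares were 39.4% in UMSCC25 and 46.8% in UMSCC8. Of the 145 higher shRNAs, 48.6% of those tested in UMSCC25 and 57.2% in UMSCC8 were higher there (against 51.8% and 51.3% of all members). For the 73 higher without replicate 1 these shares were 63.4% and 63.0%. The plates of the 3 lines are separate. Across all members the Spearman correlation of the log2 fold changes of UMSCC1 with those of UMSCC25 was -0.159, and -0.034 without replicate 1. With UMSCC8 it was -0.050 and 0.047.

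The change with AZD8931 was also more dispersed in UMSCC1 than in the other lines. Its SD across shRNAs was 1.19 on the log2 scale in UMSCC1 and 1.13 without AZD8931 replicate 1, against 0.79 in UMSCC25 and 0.73 in UMSCC8. More than 2-fold changes were found for 25.4% of the shRNAs in UMSCC1 and 21.0% without replicate 1, against 13.8% in UMSCC25 and 12.7% in UMSCC8. The common dispersion of the counts within groups, edgeR's estimate of the plate-to-plate variance, was also higher in UMSCC1, at 0.320 and 0.257 without replicate 1, against 0.167 in UMSCC25 and 0.181 in UMSCC8. No shRNA passed an adjusted p under 0.05 in UMSCC25 or UMSCC8 (edgeR's quasi-likelihood test, with 119 lower, 3.87%, and 168 higher, 5.46%, before adjustment in UMSCC25, and 115, 3.70%, and 109, 3.50%, in UMSCC8).

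None of the 6 shRNAs paired with the type I or type II TGF-β receptor, the kinases TGFBR1 and TGFBR2, passed the test in UMSCC1, and their log2 fold changes with AZD8931 ran from -1.91 for TRCN0000039774 (standard error 1.40, adjusted p = 0.692, edgeR's quasi-likelihood test) to -0.08 for TRCN0000040011 (standard error 0.79), which was -1.41 without AZD8931 replicate 1. TRCN0000039774 had 87, 12 and 7 counts with DMSO and 0, 17 and 2 with AZD8931, and the groups overlapped: its value was -1.33 without AZD8931 replicate 1, -5.07 without AZD8931 replicate 2 and -0.59 without DMSO replicate 1.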

How the data were processed

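The authors deposited unnormalized whole-number counts for each shRNA in each library. For their making, the submitters' notes list Bowtie 1.0.0, edgeR and hg19 with no role given, and the methods cite BiNG!S. All samples were grouped by title, and by the methods the plates were split from the library-expressing cells of a line, so p-values measure only the spread between such plates, not between transductions. The test was the quasi-likelihood one of edgeR 4.0.16 (R 4.3.3), with TMM factors, a robust fit of the 9 UMSCC1 libraries together and no replicate term, over the members. CPM uses TMM-scaled totals. Deviations between plates used log2 CPM with 0.5 counts added. The limit taken for 0 counts was 3, or 5.57 to 13.3 CPM on a plate, and covers counting error only. The alternatives were RLE factors, total counts, other filters, DESeq2 1.42.0, the exact test, limma 3.58.1, the 6 libraries alone, a replicate block and leaving out each library. The named shRNAs were, in each direction, the 2 with the smallest p among those whose plates did not overlap, with the 6 paired with TGFBR1 or TGFBR2. The comparison, the lists and this rule were chosen with earlier results of these data known. TRCN0000001935, the UMSCC25 component and the blocks of clone numbers were chosen after their values were seen. All pairs of the 6 plates differed by more than sampling noise (reduced chi-square 14.4 or more). The FASTA and annotation at hand (GRCh38) were not used, since the table has no coordinates.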

Additional observations from a re-analysis of the deposited data

Results flagged for a closer look

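In the comparison of the 6 UMSCC1 plates, 2 of 7 measures held a plate farther from the others than Dixon's 95% value, which chance gives for about 1 group in 20. AZD8931 replicate 1 had an SD of deviations of 1.83 on the log2 scale, against 1.02 to 1.16 for the others. This plate had already been singled out as standing apart, so its flag is no separate support. A single shRNA made up 14.0% of DMSO replicate 2, against 2.40% to 6.46% on the others.

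In edgeR's interaction test, 2 shRNAs had another change with AZD8931 in UMSCC1 than in UMSCC25. The difference of the log2 fold changes was 4.76 for TRCN0000010207, whose counts with AZD8931 were higher in all 3 UMSCC1 plates. It was -9.93 for TRCN0000001935, a fitted value that depends on the prior count because the 3 AZD8931 plates of UMSCC1 were at 0. TRCN0000001935 passed the minimum of 10 counts in UMSCC1 only through the DMSO plates, so that it had to be lower with AZD8931 there. Neither of the 2 shRNAs passed without AZD8931 replicate 1 of UMSCC1.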

How the results depend on the processing

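The count of 0 shRNAs lower and 0 higher with AZD8931 was the same with RLE factors, total counts, both other filters, limma-voom with quality weights, the 6 libraries alone and the replicate block. It was also the same with the covariate, each plate's slope on the UMSCC25 component, which was computed from the counts tested. DESeq2 called 17 lower and 7 higher and the exact test 2 and 1, and the lower calls of both included TRCN0000001935, which had to be lower. Without AZD8931 replicate 1 both called 1 lower and 0 higher. Leaving out a further library gave between 0 and 1 lower calls and 0 higher, with and without AZD8931 replicate 1, and the 1 call, without DMSO replicate 2, was TRCN0000010117 in each. The quality weight of AZD8931 replicate 1 was 0.360, against 0.912 to 1.49 for the other libraries. At an unadjusted p under 0.05, limma-voom had 65 lower and 90 higher without AZD8931 replicate 1, the covariate 74 and 77, and leaving out DMSO replicate 2 as well 123 and 114, against 109 and 73.

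The 2 differences from UMSCC25 became 0 with limma-voom and 0 with the replicate block, and between 0 and 28 when a library was left out. They became 0 without UMSCC1 DMSO replicate 3, UMSCC1 AZD8931 replicate 1, or UMSCC25 DMSO replicate 1 or 3 or AZD8931 replicate 2 or 3, 1 without UMSCC1 DMSO replicate 1, 5 without UMSCC1 AZD8931 replicate 3, 7 without UMSCC25 AZD8931 replicate 1, 25 without UMSCC1 DMSO replicate 2 and 28 without UMSCC1 AZD8931 replicate 2. The cause was not tested. The count of 0 against UMSCC8 held under all alternatives run.

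Same-numbered DMSO and AZD8931 plates deviated with correlations from -0.082 to 0.175, so the numbers were not taken to pair them; 1 of 3 DMSO plates correlated best with its own number. With the replicate block, 133 shRNAs were lower and 122 higher at an unadjusted p under 0.05, with 0 past the adjusted threshold.

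Leaving out 1 library in turn turned the log2 fold change positive for 4 shRNAs of TGFBR1 or TGFBR2. It ran from -0.70 to 0.16 for TRCN0000039776, positive without DMSO replicate 1 (0.02), DMSO replicate 2 (0.09) or AZD8931 replicate 3. It ran from -1.41 to 0.28 for TRCN0000040011, positive without DMSO replicate 1 (0.07), DMSO replicate 2 (0.12), AZD8931 replicate 2 or AZD8931 replicate 3 (0.26). Without DMSO replicate 2 it was positive for TRCN0000039777 (range -1.03 to 0.14) and TRCN0000040008 (range -5.18 to 0.0091). The 4 shRNAs named for the smallest p kept their direction in the alternatives run. There were 16 for each but 15 for TRCN0000006387, which the stricter filter left out. These 4 were chosen because their plates did not overlap, so that leaving out a plate could hardly reverse them. Their constancy is therefore no support. The differences in missing shRNAs and in the share of the 10 most abundant kept their direction in every alternative. Depth limits what could be seen for scarce shRNAs: over all members the median was 30 counts on DMSO replicate 2.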
